A study of Mus musculus with 19 samples.

Results

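The short annotated open reading frames (ORFs) of mouse lung organoids were examined, that is the listed ORFs of at most 100 codons that lie on annotated coding transcripts. An ORF was taken when it was marked as annotated in any of 5 ORF lists and spanned 303 nucleotides or less with its stop codon. The lists hold 740 such ORFs, among 13381 annotated ORFs and 21663 ORFs of all types, and the 740 lie in 594 host genes and encode 735 distinct proteins. The study compared lung adenocarcinoma (LUAD) organoids with organoids of normal alveolar type 2 (AT2) cells, the surfactant-producing cells of the lung alveolus. All organoids were of strain C57BL/6, were grown in a custom lung organoid medium and were plated for 48 hours. Cycloheximide, a drug that stalls ribosomes on the message, was added at 100 µM for the last 5 minutes. The LUAD ORF libraries are titled KP, and the labels name no allele and no age for either group. Translated ORFs were listed by the authors in 3 LUAD and 2 AT2 libraries from RiboLace footprints, a pull-down of ribosomes engaged in translation. Footprints and RNA were counted in 4 LUAD and 3 AT2 libraries each. The ORF libraries and the count libraries are separate samples, so an equal number does not mean the same library. P-sites below always refer to ORF libraries, and CPM to count libraries.

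Small proteins do much of the plain work of a cell. They are subunits of the respiratory chain, adaptors of the ubiquitin system, metal carriers, chemokines, light chains of motors and membrane microproteins. A short ORF on an annotated transcript need not be a small protein in this sense, because many genes that encode a long protein also have transcripts whose coding sequence (CDS) is cut short. Some of these are targets of nonsense-mediated decay (NMD), the pathway that removes transcripts with a premature stop codon.

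Footprint libraries held 4.80, 14.2, 13.3 and 14.2 M estimated counts in LUAD and 3.03, 3.49 and 3.83 M in AT2. RNA libraries held 32.9, 33.2, 29.3 and 27.2 M in LUAD and 9.57, 10.2 and 4.12 M in AT2. The summed CPM (counts per 1 M counts paired with genes) of the 6 measured of 10 AT2 markers ranged from 274 to 377 in LUAD footprints and from 1563 to 2934 in AT2 footprints. The 4 epithelial markers Epcam, Cdh1, Krt8 and Krt18 were present in both groups. Markers of alveolar type 1 cells, the flat gas-exchange cells, were lower in LUAD RNA too, and overlapped in footprints. The summed CPM of the 3 measured of 4 ranged from 12.2 to 26.3 in LUAD footprints and from 13.2 to 269 in AT2 footprints. In RNA it ranged from 9.80 to 19.6 in LUAD and from 489 to 2182 in AT2. Of the other cell types, Cd14 was the single measured leukocyte marker of 6, with 58.6 to 66.8 CPM in LUAD footprints and 4.92 to 8.89 CPM in AT2 footprints, and the part of either cell type in the results was not tested. No fibroblast, endothelial, club or ciliated marker was measured. AT2 footprint library 1 stood apart, with 52.1% of its gene counts on Mettl26, against 4.14% and 1.99% in AT2 libraries 2 and 3 and 0.261% to 1.37% in LUAD. The libraries also fell into 2 sets whose deviations went together, with AT2 1, LUAD 1 and LUAD 2 in one footprint set and AT2 1, AT2 2, LUAD 1 and LUAD 2 in one RNA set. The labels do not say whether libraries of a group are separate cultures, and the p-values then cover the spread between libraries only, which may be technical.

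The start regions of 4 of the 5 chemokine genes among the hosts are shown, those whose RNA had the largest fold changes, all higher in LUAD. Each line gives the 100 bases before the RefSeq start site on GRCm38.p6, 5′ to 3′. Capitals mark matches to GGGNNNTTCC, a form of the site bound by NF-kB factors, searched on both strands, with overlapping matches joined. The 4 regions are chr5:90891145-90891244 for Cxcl1, chr5:90903799-90903898 for Cxcl2, chr5:90786001-90786100 for Cxcl3 and chr1:83116666-83116765 for Ccl20, all on the plus strand.
Cxcl1: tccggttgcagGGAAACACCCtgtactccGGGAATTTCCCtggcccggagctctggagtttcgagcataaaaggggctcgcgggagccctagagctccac
Cxcl2: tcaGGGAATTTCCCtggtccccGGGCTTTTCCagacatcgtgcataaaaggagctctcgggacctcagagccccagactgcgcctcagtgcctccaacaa
Cxcl3: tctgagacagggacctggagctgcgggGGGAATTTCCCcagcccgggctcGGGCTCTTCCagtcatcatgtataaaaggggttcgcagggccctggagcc
Ccl20: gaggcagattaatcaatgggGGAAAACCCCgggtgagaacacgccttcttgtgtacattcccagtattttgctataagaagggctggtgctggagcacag
Cxcl1, Cxcl2 and Cxcl3 held 3 matches each and Ccl20 held 1, with each strand counted. In Cxcl1, Cxcl2 and Cxcl3 the stretch GGGAATTTCCC holds a match on each strand, and these overlap and share a single stretch of capitals. The letters GGGAATTTCC began 71, 97 and 73 bases before the start of Cxcl1, Cxcl2 and Cxcl3. Over windows of 250 bases before to 50 after the start, 5.56% of all 32851 promoters held the motif and 0.0883% held GGGAATTTCC on either strand. Of the 479 host genes with a window, 37 (7.72%) held the motif. The motif was chosen after the genes were seen, and GGGAATTTCC was taken as the match that Cxcl1, Cxcl2 and Cxcl3 share. That these genes hold it is therefore given, and its share over all promoters tests nothing. A match is a string of letters, not a measured binding site.

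The 740 ORFs ran from 20 to 100 codons with a median of 75, and 129 had 50 codons or fewer. Annotation put 417 of them (56.4%) on protein-coding transcripts, 318 (43.0%) on NMD transcripts and 5 on both. Of the 12641 longer annotated ORFs, 716 (5.66%) lay on NMD transcripts alone. The short ORFs are therefore described in 2 classes. The first holds 144 ORFs of 114 genes that list no CDS over 100 codons and have a protein-coding transcript, and these are called small-protein genes. The other 596 ORFs lie in 494 genes, and 319 of them share their first 10 residues with a longer listed ORF of the gene, 227 of the 319 on NMD transcripts alone. The small-protein class had a median of 80 codons and the other class 73. A stretch of 19 residues with a mean Kyte-Doolittle hydropathy over 1.6, the usual mark of a candidate membrane segment, occurred in 34 (23.6%) of the small-protein class and 81 (13.6%) of the other ORFs. Cysteine made up 10% or more of the residues in 13 ORFs, led by the metallothioneins Mt1 and Mt2 with 20 cysteines in 61 codons each.

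**Figure D1:**
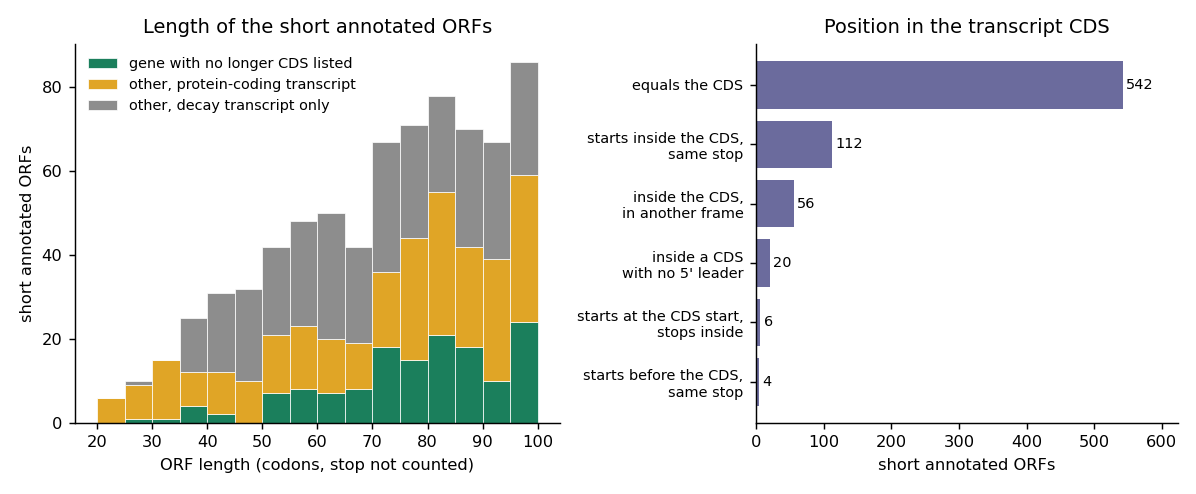
Left, number of short annotated ORFs by length in codons, with small-protein genes in green, other ORFs on protein-coding transcripts in orange and other ORFs on decay transcripts alone in grey. Right, number of ORFs by their place in the CDS of their transcript, where 542 of 740 equal that CDS.

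A match to the transcript's own CDS was found for 542 of the 740 ORFs (73.2%). These carried 94728 of the 109665 P-sites on short ORFs, a P-site being the codon held in the ribosome's peptidyl site. A further 112 ORFs (15.1%) began inside a CDS and ended at its stop, and all 112 lay on transcripts annotated with no 5′ leader. Another 20 lay inside a CDS with no 5′ leader, and 4 began before the annotated start and shared its stop. Hilpda was one of these 4, with an ORF of 95 codons against an annotated CDS of 64, and Abracl had 90 against 81.

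The name annotated hides a group that is not in the frame of its transcript's annotated CDS. In 56 ORFs (7.57%) of 50 genes, the ORF lay inside the CDS but in another reading frame. A longer ORF of the gene was listed for 51 of them, and 1 of them was contained in such a longer ORF. All 56 sat on transcripts with no 3′ trailer and a CDS length that is not a multiple of 3, that is on incomplete transcript models. They were short, with a median of 42.5 codons, and carried 2951 P-sites, 56.2% of them in the ORF's frame. The largest was Ly6e, a surface protein of the Ly6 family, whose 51-codon ORF had 496 P-sites in LUAD library 3. Pkm, the glycolytic enzyme pyruvate kinase, had a 42-codon ORF with 279 P-sites in LUAD library 1. A 33-codon ORF of Eif4g1, the scaffold of the cap-binding complex, had 153 P-sites in LUAD library 1. The shortest ORF of all was of this kind, 20 codons in the adaptor gene Sdcbp, with 24 P-sites, 12 of them in frame. Plekhs1 followed with 21 codons, 84 P-sites and 58.3% in frame.

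A smaller group of 6 ORFs began at the CDS start and stopped inside it. Of the 6, 5 are in selenoprotein genes, whose messages read UGA as selenocysteine, and the last is in mt-Nd6, a complex I subunit read with the mitochondrial code, in which UGA is tryptophan. Gpx1, a glutathione peroxidase, had 46 codons, with 240 and 132 P-sites in LUAD libraries 1 and 2 and 46 in AT2 library 2 and 52.9% in frame. The other 4 were Msrb1, a methionine sulfoxide reductase, with 94 codons and 112 P-sites, Selenoh with 37 codons and 94, Selenot with 48 codons and 56, and Sephs2, which makes the selenium donor, with 62 codons and 17. The mt-Nd6 ORF of 85 codons had 181 P-sites, 39.8% in frame. The codon at which these 6 ORFs end was not read here. Both groups, in another frame and stopping inside, were singled out after the lists had been seen.

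LUAD libraries listed more short ORFs than AT2 libraries in absolute number, but not as a share of all annotated ORFs listed. LUAD libraries 1 to 3 listed 428, 262 and 170 short ORFs, and AT2 libraries 1 and 2 listed 94 and 115. These were 4.85%, 4.62% and 4.74% of the annotated ORFs listed in LUAD and 6.43% and 3.69% in AT2. The 3 LUAD shares lay between the 2 AT2 shares. Mean shares were 4.74% ± 0.114 in LUAD and 5.06% ± 1.94 in AT2 (SD, n = 3 and 2), and the difference of -0.324 percentage points had p = 0.8 in an exact two-sided permutation test. With 3 libraries against 2 the smallest p this test can give is 0.2. The sign of this difference turned without AT2 library 1, to 1.04, and among ORFs with at least 20 P-sites, to 1.10.

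In-frame P-sites were the majority on short ORFs of both classes together in all 5 libraries. The in-frame share was 54.5%, 54.2% and 51.0% in LUAD and 58.8% and 53.7% in AT2. On longer annotated ORFs it was 47.7%, 46.6% and 43.9% in LUAD and 46.1% and 47.3% in AT2, below the short ORFs of the same library each time. The lists hold only ORFs with the authors' p of 0.05 or less for in-frame excess, so an ORF with few positions enters only when that excess is large. Between tissues the mean in-frame share on short ORFs was 53.2% ± 1.94 in LUAD and 56.3% ± 3.63 in AT2 (exact two-sided permutation p = 0.6).

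Short ORFs took 2.03%, 2.49% and 2.41% of the P-sites on annotated ORFs in LUAD and 3.32% and 2.81% in AT2. Every LUAD share was below both AT2 shares, and the exact two-sided permutation p of 0.2 is the smallest possible here. Among ORFs with the authors' p of 0.001 or less the difference of -0.757 percentage points became 0.195. The median short ORF had 81, 26 and 29 P-sites in LUAD and 15 and 20 in AT2. The deposited RPKM of in-frame P-sites, which divides by length, had medians on short ORFs of 19.8, 25.8 and 26.5 in LUAD and 15.2 and 45.7 in AT2. For longer annotated ORFs these medians were 5.70, 6.51 and 6.09 in LUAD and 4.11 and 7.66 in AT2. The fewest P-sites of a listed ORF ranged over libraries from 5 to 12 for short and from 5 to 8 for longer ORFs. A similar number on a shorter ORF gives a higher RPKM, so these medians of listed ORFs do not show denser translation of short ORFs.

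**Figure D2:**
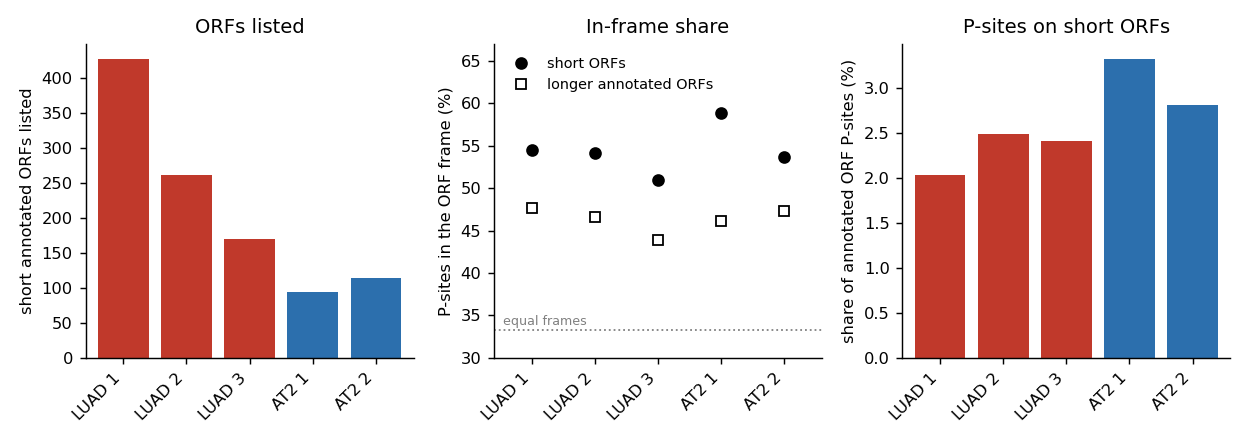
For each ORF library, LUAD libraries left and AT2 libraries right: number of short annotated ORFs listed, in-frame share of P-sites in percent on short ORFs (filled circles) and longer annotated ORFs (open squares), and percent of annotated-ORF P-sites on short ORFs. The in-frame share is higher on short than on longer ORFs in all 5 libraries, and the dotted line marks equal use of the 3 frames.

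Of the 740 ORFs, 504 were listed in 1 library, 162 in 2, 55 in 3, 19 in 4 and none in all 5. LUAD lists alone held 543, AT2 lists alone 77, and 120 were in lists of both. In the small-protein class these counts were 101, 7 and 36. Absence from a list says only that an ORF did not reach the authors' p in that library. P-sites on all listed annotated ORFs numbered 3614177, 632156 and 496566 in LUAD libraries 1 to 3. In AT2 libraries 1 and 2 they numbered 78163 and 216028. Whether listing follows depth was not tested. The 19 ORFs of 4 libraries were those of S100a6, S100a10, Mt1, Mt2, Rps9, Pfn1, Hsbp1, Fam107b, Nop10, Pomp, Sec61b, Hnrnpd, Ptbp1 and Fubp3, with 3 of Tmsb4x and 2 of Gnas.

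Short ORFs differed widely in P-sites. The 144 ORFs of small-protein genes carried 49415 of the 109665 P-sites, with a median of 98 per ORF, and the other 596 carried 60250 with a median of 43. Of the 740 ORFs 34 reached 500 P-sites, 16 in small-protein genes and 18 in the other class, and 198 had fewer than 20. Some of these sums count the same footprints more than once, because 43 ORFs had the same P-sites in every library as another ORF of their gene. ORFs that overlap with unequal P-sites were not counted here, and Tmsb4x and Gnas each occur repeatedly among the ORFs with most P-sites. The shares of P-sites and the in-frame shares per library rest on such sums as well.

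S100a6, a calcium-binding protein of epithelial cells, had the largest sum over the 5 libraries, with 6477 P-sites on 89 codons (chr3:90613767-90614322, plus strand, mm10). It had 3206, 1378 and 1323 P-sites in LUAD libraries 1, 2 and 3 and 570 in AT2 library 2, with 51.5% in frame. It also had the most P-sites of the short ORFs in LUAD 2, LUAD 3 and AT2 2, whereas Tmsb4x did in LUAD 1 and Rps19 in AT2 1. The thymosin gene Tmsb4x, which encodes an actin monomer-binding peptide, had 4883, 468 and 533 P-sites in LUAD libraries 1, 2 and 3 and 408 in AT2 library 2 on its 50-codon ORF. S100a10, the annexin A2 partner, had 1919, 275 and 393 P-sites in LUAD libraries 1, 2 and 3 and 138 in AT2 library 2 on 97 codons (chr3:93560964-93564404, plus strand). Both metallothioneins, which bind zinc and copper, were near the top of the lists. Mt1 had 570, 511 and 548 P-sites in LUAD libraries 1, 2 and 3 and 413 in AT2 library 2 and Mt2 had 531, 248 and 240 P-sites in LUAD libraries 1, 2 and 3 and 293 in AT2 library 2. In these 5 small proteins the ORF was listed in all 3 LUAD ORF libraries and in AT2 ORF library 2, and in none was it listed in AT2 ORF library 1.

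Below them came proteins of the organelles and of protein turnover. The proteasome subunit Sem1 had 810 P-sites on 70 codons, the dynein light chain Dynll1 614 on 89, the ATP synthase subunit Atp5j2 586 on 88, the ubiquitin-like modifier Nedd8 540 on 81, and the respiratory chain subunits Uqcrq and Cox6b1 520 and 488. The smallest of the oligosaccharyltransferase subunits, Ost4, had 37 codons and 59 P-sites, 93.2% of them in frame. Several of the largest values belonged to shortened forms of longer proteins. A 39-codon ORF on an NMD transcript of clusterin, Clu, had 1266 and 1313 P-sites in LUAD libraries 1 and 2 and 411 in AT2 library 2. A 72-codon ORF on an NMD transcript of the ribosomal protein gene Rps19 had 370 P-sites in LUAD library 3 and 330 in AT2 library 1, and 77.4% of these P-sites were in frame. Footprints on such ORFs cannot be told apart from footprints on the longer ORF where both share sequence and frame.

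At the length limit itself, 17 ORFs had exactly 100 codons and 14 had 101. The median listing had 54 P-sites and 55.3% in frame at 100 codons, and 43 P-sites and 53.5% at 101. Cxcl3, with 756 P-sites in LUAD library 1, sat just inside, and Ptms, Vamp8 and Tardbp, with 895, 566 and 319 P-sites, had annotated ORFs just outside.

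The host genes were next compared between tissues, with counts summed over all transcripts of a gene. In bulk organoids, fewer cells of a type and less RNA per cell cannot be told apart. Of 592 host genes in the count tables, 574 were tested for footprints, and 50 were higher and 59 lower in LUAD (edgeR adjusted p under 0.05), or 19.0%. Over all 6814 genes tested 21.3% passed, 9.47% higher and 11.8% lower. In RNA 154 of 575 host genes were higher and 65 lower, or 38.1%, against 37.0% of all 6942 genes, 19.0% higher and 18.0% lower. Host genes thus passed about as often as genes at large, and in RNA they were higher in 26.8% and lower in 11.3%. Their median log2 fold change was 0.03 in footprints and 0.25 in RNA, and that of all genes -0.02 and 0.04. Scaling the libraries on all transcripts moved the median of all genes by 0.17 in each assay. Among host genes it gave 80 higher and 38 lower in footprints, and 215 higher and 35 lower in RNA. Over all genes it gave 883 higher and 610 lower in footprints, and 1826 higher and 901 lower in RNA. The host counts also hung on single libraries. For footprints 61 host genes passed without LUAD 3, 64 without LUAD 4 and 65 without LUAD 2, against 12.5%, 12.7% and 13.5% of all genes. For RNA 111 passed without AT2 2, 119 without AT2 1 and 145 without LUAD 4, against 23.3%, 24.0% and 26.9% of all genes. Calls of genes at large thus moved as well. Among small-protein genes alone, 7 rose and 8 fell of 104 in footprints, and 21 rose and 10 fell of 104 in RNA. These counts moved with single libraries too, as did the share of all genes, which was 27.2% in footprints without AT2 1. In footprints 10 rose and 19 fell without AT2 1, 6 and 3 without AT2 2, 5 and 3 without LUAD 2, and 4 and 3 without LUAD 3 or LUAD 4. In RNA 14 rose and 5 fell without AT2 1, 12 and 2 without AT2 2, and 13 and 7 without LUAD 3. DESeq2 gave 13 higher and 14 lower in footprints. Library set as a term gave 20 higher and 26 lower in footprints, and 32 higher and 23 lower in RNA. The sets were taken from the deviations of these same libraries, so such a term takes up spread between them by construction. Under it 42.1% of all genes passed for footprints and 53.8% for RNA. Calls gained under this term, here and below, are therefore no independent support.

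**Figure D3:**
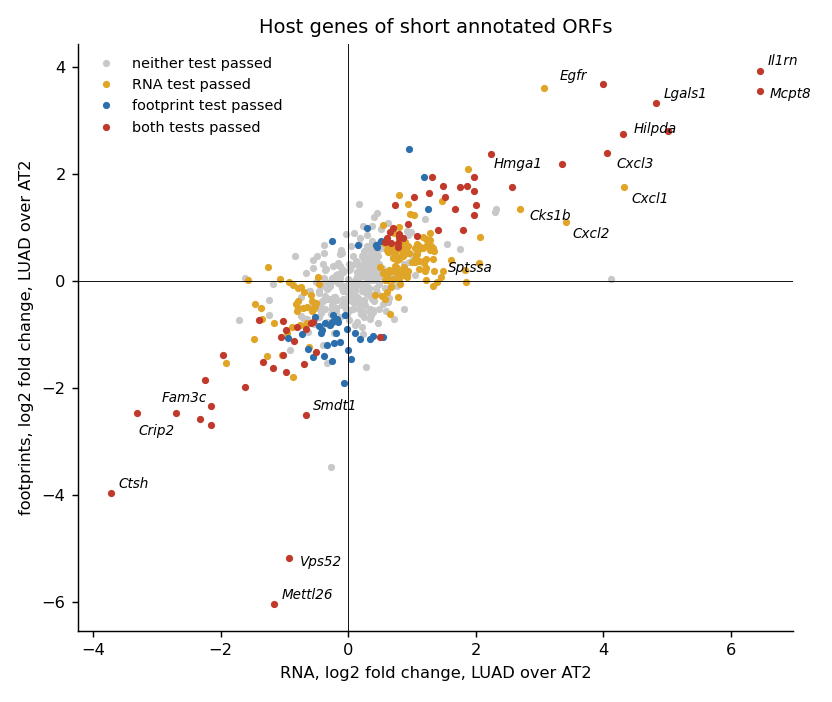
Each point is 1 of 561 host genes tested in both assays, with the log2 fold change LUAD over AT2 of RNA across and of footprints up the page; 6 genes with at most 3 counts in a group are left out. Colours show which edgeR tests passed, and named genes such as Il1rn and Ctsh lie at the ends of the diagonal.

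The list of secreted peptides and chemokines had the highest median fold change of the 14 lists in each assay. RNA of 6 of 7 host genes on the list was higher in LUAD and none was lower, with a median log2 fold change of 2.31, and footprints of 2 of 7 were higher, with a median of 1.10. Over all genes 9.47% were higher and 11.8% lower in footprints, and 19.0% higher and 18.0% lower in RNA. Counts of this and the following lists are to be read beside these shares, and no list was tested against them. Cxcl1, Cxcl2 and Cxcl3 are neighbours on chromosome 5 and encode neutrophil attractants. Cxcl1 RNA was at 102, 111, 226 and 220.0 CPM in LUAD and 3.24, 2.62 and 22.5 CPM in AT2. All 4 LUAD libraries lay above all 3 AT2 libraries (log2 fold change 4.33 ± 0.81, adjusted p = 0.00474, edgeR). Its footprints, at 13.2, 9.66, 18.8 and 14.3 CPM in LUAD and 0, 7.44 and 4.16 CPM in AT2, also did not overlap, and did not pass the test (log2 fold change 1.75 ± 0.80, adjusted p = 0.162). With DESeq2 and with library set as a term they did (adjusted p = 0.0414 and 0.0412). Cxcl3 passed in both assays. Its footprints were at 145, 147, 250.1 and 216 CPM in LUAD and 8.005, 33.1 and 64.3 CPM in AT2 (log2 fold change 2.38 ± 0.56, adjusted p = 0.0207) and its RNA at 464, 461, 834 and 774 CPM in LUAD and 8.40, 11.5 and 99.7 CPM in AT2 (log2 fold change 4.06 ± 0.90, adjusted p = 0.00945). In each assay the groups did not overlap, and AT2 library 3 was the highest of AT2. Cxcl2 RNA was at 45.2, 44.3, 126 and 124 CPM in LUAD and 2.36, 4.28 and 20.2 CPM in AT2 (log2 fold change 3.41 ± 0.80, adjusted p = 0.0125), and its footprints overlapped between groups (log2 fold change 1.10 ± 1.12, adjusted p = 0.533). Without AT2 3 the Cxcl2 footprints passed (log2 fold change 4.75, adjusted p = 0.0415). The Cxcl1, Cxcl2 and Cxcl3 messages are related in sequence, so reads may be split among them. With 1 library left out, the edgeR adjusted p was 0.0573 without AT2 2 for Cxcl2 RNA and 0.0504 to 0.0718 without AT2 2, LUAD 3 or LUAD 4 for Cxcl3 footprints.

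The ORFs of these chemokines were listed in LUAD libraries only. Cxcl3 had 756 P-sites in LUAD library 1 (chr5:90786171-90787448, plus strand, mm10), Cxcl2 had 159 P-sites in LUAD library 1 (chr5:90903945-90905204, plus strand) and Cxcl1 had 112 P-sites in LUAD library 2 (chr5:90891311-90892523, plus strand). Ccl20, the ligand of Ccr6, rose in RNA, at 36.4, 37.0, 41.8 and 39.7 CPM in LUAD and 5.75, 4.97 and 19.0 CPM in AT2, with no overlap (log2 fold change 2.05 ± 0.47, adjusted p = 0.0106). Its footprints had a log2 fold change of 0.33 ± 0.49 (adjusted p = 0.677). Wfdc2, a secreted protein of airway epithelium with protease inhibitor folds, averaged 2696 ± 416 CPM in LUAD and 1507 ± 174 CPM in AT2 in RNA (SD, n = 4 and 3; log2 fold change 0.84 ± 0.17, adjusted p = 0.00658). Cxcl16, a chemokine made on the cell surface, rose in RNA too (log2 fold change 0.78 ± 0.13, adjusted p = 0.00285). Its footprint call (log2 fold change 0.71 ± 0.19, adjusted p = 0.0329) was lost in 6 of 7 leave-outs, with adjusted p of 0.0534 to 0.084 without AT2 2, AT2 3, LUAD 1, LUAD 2, LUAD 3 or LUAD 4. Tff1, a mucosal trefoil peptide, did not pass in either assay (log2 fold change 2.31 ± 1.34, adjusted p = 0.206 in RNA), and without AT2 3 its RNA passed (log2 fold change 5.91, adjusted p = 0.00611). It also passed with the replicate number as a block in the RNA fit (log2 fold change 3.06, adjusted p = 0.0168).

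AA467197 was near absent from AT2. This small-protein gene of 83 codons (chr2:122638098-122640769, plus strand, mm10) corresponds to the human mitochondrial microprotein gene NMES1. Its footprints were at 12.4, 19.6, 14.4 and 12.8 CPM in LUAD and 0, 0 and 0 CPM in AT2, so LUAD was at least 31.7-fold higher, taking a floor of 3 counts over the AT2 group. RNA was at 68.4, 75.4, 52.1 and 47.8 CPM in LUAD and 0.442, 0 and 0 CPM in AT2. The AT2 RNA value rests on 3 counts in all, so the LUAD to AT2 ratio was 346 (counting interval 118 to 1678). The tests passed in both assays (edgeR adjusted p = 0.00285 and 0.000105), and the ORF had 219 and 32 P-sites in LUAD libraries 1 and 2.

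RNA of Hilpda, Hmga1 and Cks1b was higher in LUAD, and these genes were picked after their values were seen. Hilpda, a hypoxia-induced protein of lipid droplets, had RNA at 161, 156, 211 and 189 CPM in LUAD and 9.13, 8.98 and 8.92 CPM in AT2 (log2 fold change 4.31 ± 0.20, adjusted p = 1.17e-05). Footprints of Hilpda were at 41.9, 39.7, 63.9 and 59.9 CPM in LUAD and 0.889, 9.92 and 10.6 CPM in AT2 (log2 fold change 2.74 ± 0.56, adjusted p = 0.0116). Neither assay overlapped between groups, and the lowest LUAD value was over 3 times the highest AT2 value. Hmga1, a chromatin protein with AT-hooks, averaged 1265 ± 287 CPM in LUAD and 125 ± 113 CPM in AT2 in RNA (log2 fold change 3.36 ± 0.60, adjusted p = 0.00382) and 165 ± 43.1 CPM in LUAD and 36.4 ± 4.60 CPM in AT2 in footprints (log2 fold change 2.18 ± 0.26, adjusted p = 0.00131; SD, n = 4 and 3). Its short ORFs were listed in AT2 library 1 alone, with 9 P-sites each. Cks1b, a cofactor of cyclin-dependent kinases, had RNA at 348, 367, 761 and 713 CPM in LUAD and 47.1, 49.9 and 159.8 CPM in AT2 (log2 fold change 2.70 ± 0.54, adjusted p = 0.00623), without overlap. Its footprints did not pass (log2 fold change 1.34 ± 0.46, adjusted p = 0.0791), except with DESeq2 and with library set as a term (adjusted p = 0.0232 and 0.000981). Its 79-codon ORF had 394, 72 and 95 P-sites in LUAD libraries 1, 2 and 3.

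**Figure D4:**
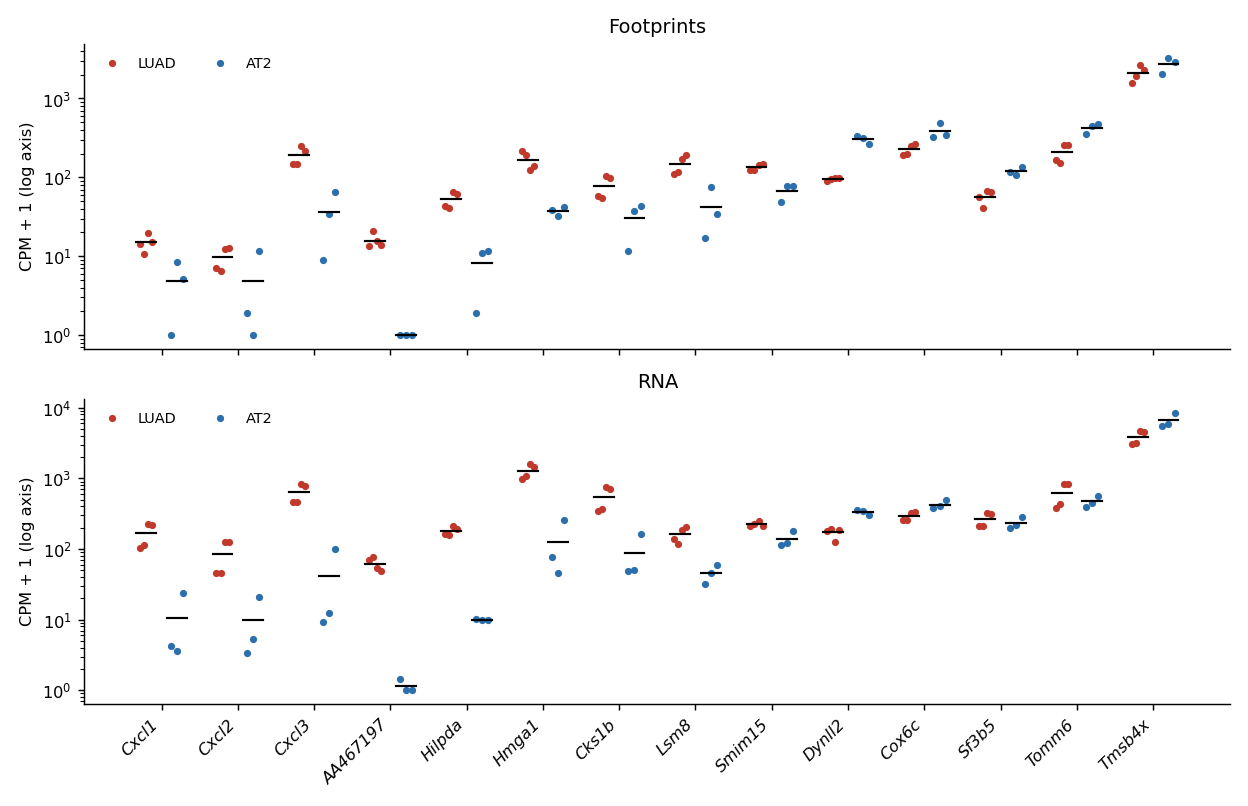
CPM plus 1 on a log axis for 14 host genes, footprints above and RNA below, with LUAD libraries in red on the left and AT2 libraries in blue on the right of each gene; bars are means. Chemokine genes, Hilpda and Hmga1 lie higher in LUAD in RNA, Dynll2 lies lower in both assays, and Tomm6 and Sf3b5 lie lower in footprints alone.

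Of the small splicing and RNA processing hosts, 1 rose and 1 fell of 4 in footprints. Lsm8, a subunit of the ring that binds U6 RNA, rose in RNA (log2 fold change 1.87 ± 0.29, adjusted p = 0.00196), and its footprint call (log2 fold change 1.78 ± 0.48, adjusted p = 0.0338) was lost at an adjusted p of 0.0587 to 0.105 without AT2 3, LUAD 2, LUAD 3 or LUAD 4. Sf3b5, a subunit of the U2 particle, had footprints at 54.5, 39.3, 66.0 and 63.8 CPM in LUAD and 115, 107 and 134 CPM in AT2 (log2 fold change -1.08 ± 0.23, adjusted p = 0.0121). Every LUAD footprint value of Sf3b5 was below every AT2 value, and in RNA its groups overlapped (log2 fold change 0.19 ± 0.23, adjusted p = 0.55). Among transcription hosts 2 of 9 rose in footprints and 4 of 9 in RNA, and 1 fell in RNA. Of all genes 9.47% rose in footprints, and 19.0% rose and 18.0% fell in RNA. Hmga1 rose in both assays, as did Polr2j, a subunit of RNA polymerase II (log2 fold change 0.84 ± 0.25, adjusted p = 0.0445 in footprints). The edgeR adjusted p of Polr2j was 0.081 to 0.123 without AT2 3, LUAD 1, LUAD 2, LUAD 3 or LUAD 4 and 0.505 with counting only transcripts listed with the short ORF in footprints, and 0.0541 to 0.0562 without AT2 1 or AT2 2 and 0.115 with counting only transcripts listed with the short ORF in RNA. The others in RNA were Gtf2a2, a subunit of the general factor TFIIA (log2 fold change 1.47 ± 0.32, adjusted p = 0.0088), the elongation factor Supt4a (log2 fold change 0.63 ± 0.14, adjusted p = 0.0113) and, as the one that fell, the nucleosome-binding Hmgn3 (log2 fold change -0.72 ± 0.17, adjusted p = 0.0136). Gtf2a2 was lost when only transcripts listed with the short ORF were counted (adjusted p = 0.0613). Of the ubiquitin and proteasome hosts, Sumo3 (log2 fold change 1.10 ± 0.30, adjusted p = 0.0236) and Anapc11, the RING subunit of the anaphase-promoting complex (log2 fold change 0.93 ± 0.26, adjusted p = 0.024), rose in RNA, and these calls were lost at 0.0568 to 0.0913 without AT2 1, AT2 2, LUAD 3 or LUAD 4 and 0.383 with counting only transcripts listed with the short ORF for Sumo3 and 0.0615 to 0.0946 without AT2 1, AT2 2, LUAD 3 or LUAD 4 for Anapc11. Sumo3 footprints passed without AT2 1 (log2 fold change 1.31, edgeR adjusted p = 0.0027). Sem1 and Nedd8, with the most P-sites of this list, did not pass in either assay.

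Small subunits and assembly factors of oxidative phosphorylation formed the longest list, with 32 host genes. In footprints none of 29 tested rose and 3 fell, with a median log2 fold change of -0.32. RNA changes numbered 0 higher and 3 lower of 31, with a median of 0.03. Of all genes 11.8% were lower in footprints and 18.0% in RNA, so falls were not more frequent on this list than among genes at large. Ndufb6, a complex I subunit, fell in both assays, with footprints at 35.5, 29.2, 39.6 and 35.5 CPM in LUAD and 80.0, 106 and 139 CPM in AT2 (log2 fold change -1.64 ± 0.24, adjusted p = 0.00278). All 4 LUAD values were below the AT2 values, and RNA had the same order (log2 fold change -1.18 ± 0.24, adjusted p = 0.00631). Cox6c, a subunit of cytochrome c oxidase, passed in footprints (log2 fold change -0.78 ± 0.22, adjusted p = 0.0372) and RNA (log2 fold change -0.55 ± 0.17, adjusted p = 0.0338). Both calls were lost in 6 leave-outs and under other alternatives, with adjusted p of 0.0631 to 0.117 without AT2 2, AT2 3, LUAD 1, LUAD 2, LUAD 3 or LUAD 4, 0.0897 with scaling on all transcripts, 0.0675 with counting only transcripts listed with the short ORF and 0.0561 with leaving Mettl26 out of library sizes for footprints and 0.0505 to 0.0831 without AT2 1, AT2 2, AT2 3, LUAD 1, LUAD 2 or LUAD 3 and 0.0719 with scaling on all transcripts for RNA. The other calls were Ndufa11 in footprints (log2 fold change -0.84 ± 0.24, adjusted p = 0.0428) and Uqcrh in RNA (log2 fold change -0.57 ± 0.15, adjusted p = 0.0224). Ndufa11 was lost at 0.0737 to 0.134 without AT2 2, AT2 3, LUAD 1, LUAD 2, LUAD 3 or LUAD 4, 0.0507 with DESeq2 size factors, 0.0887 with scaling on all transcripts and 0.0643 with leaving Mettl26 out of library sizes, and Uqcrh at 0.0504 to 0.0838 without AT2 2, LUAD 1 or LUAD 2 and 0.0601 with scaling on all transcripts. With the replicate block Ndufa11 also passed in RNA (log2 fold change -0.51, adjusted p = 0.0214). The best covered members, Atp5j2, Uqcrq and Cox6b1, did not pass in either assay, with footprint log2 fold changes of -0.09, -0.56 and -0.61. Cox6b1 passed for footprints without AT2 1, and so did Uqcrh (edgeR adjusted p = 0.0408 and 0.0367). Of the mitochondrial import hosts, 1 of 6 fell in footprints and none passed in RNA. It was Tomm6, a subunit of the outer membrane translocase, at 165, 152, 253 and 253 CPM in LUAD and 353, 441 and 475 CPM in AT2 (log2 fold change -1.04 ± 0.25, adjusted p = 0.0207). Its groups did not overlap in footprints, and the call was lost at an adjusted p of 0.0565 to 0.0726 without AT2 2, AT2 3, LUAD 1 or LUAD 2. Tomm6 RNA overlapped between groups (log2 fold change 0.39 ± 0.32, adjusted p = 0.373). Mitochondrial ribosomal hosts had 1 RNA call of 3, Mrpl52 (log2 fold change 0.91 ± 0.22, adjusted p = 0.0149), and the 2 cytosolic ribosomal hosts had 1, Rps21 (log2 fold change 0.73 ± 0.23, adjusted p = 0.0373). Their adjusted p was 0.061 to 0.064 without AT2 1 or AT2 2 for Mrpl52, whose direction turned with only transcripts listed with the short ORF, and 0.0655 to 0.134 without AT2 1, AT2 2, LUAD 1, LUAD 3 or LUAD 4 for Rps21.

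**Figure D5:**
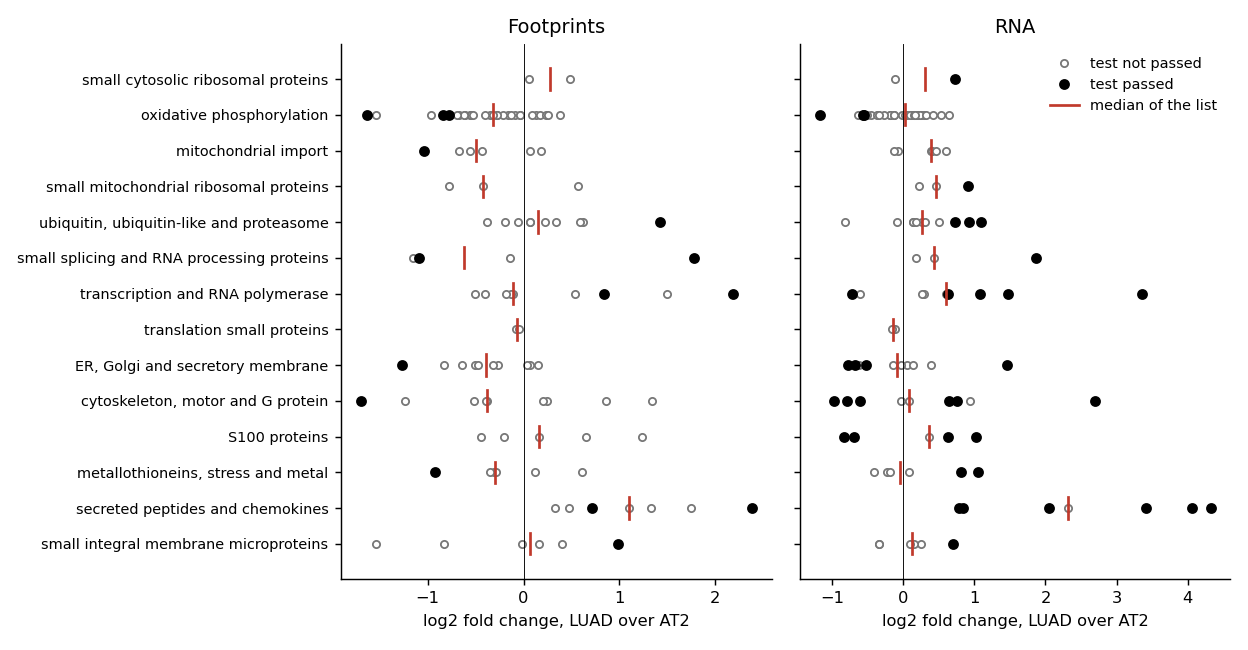
Log2 fold change LUAD over AT2 of each tested host gene, by functional list, in footprints (left) and RNA (right); filled points passed the edgeR test and red lines are list medians. The chemokine list has the highest median in each assay, 1.10 in footprints and 2.31 in RNA.

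The list of cytoskeleton, motor and G protein hosts, which also holds the kinase cofactor Cks1b, and the S100 hosts had RNA changes in both directions. In the cytoskeleton, motor and G protein list 1 of 9 fell in footprints, and 3 rose and 3 fell in RNA. Of all genes 11.8% fell in footprints, and 19.0% rose and 18.0% fell in RNA. Dynll2, a light chain shared by dynein and myosin V, had footprints at 88.0, 95.2, 98.5 and 96.6 CPM in LUAD and 337, 318 and 265 CPM in AT2 (log2 fold change -1.70 ± 0.16, adjusted p = 0.000572). Its RNA was at 179, 190.3, 124 and 187 CPM in LUAD and 356, 340.0 and 303 CPM in AT2 (log2 fold change -0.97 ± 0.18, adjusted p = 0.0048). All LUAD values of Dynll2 were below all AT2 values in both assays. Tmsb4x RNA, at 3032, 3208, 4635 and 4492 CPM in LUAD and 5538, 5932 and 8379.5 CPM in AT2, was lower in LUAD (log2 fold change -0.78 ± 0.22, adjusted p = 0.0254), and its footprints overlapped between groups (log2 fold change -0.38 ± 0.25, adjusted p = 0.337). The other RNA calls of this list were Cks1b, Dynll1 (log2 fold change 0.65 ± 0.20, adjusted p = 0.0339), the actin-binding profilin Pfn1 (log2 fold change 0.76 ± 0.23, adjusted p = 0.0347) and the G protein subunit Gng12 (log2 fold change -0.61 ± 0.14, adjusted p = 0.00984). Dynll1 was lost at 0.0526 to 0.125 without AT2 1, AT2 2, LUAD 2, LUAD 3 or LUAD 4 and Pfn1 at 0.0855 to 0.125 without AT2 1, AT2 2, LUAD 3 or LUAD 4, and Pfn1 turned direction when only transcripts listed with the short ORF were counted. Gng12 footprints passed with DESeq2 (log2 fold change -1.22, adjusted p = 0.0146) and with edgeR without AT2 3 (adjusted p = 0.0253). Of 5 S100 hosts none passed in footprints, and 2 rose and 2 fell in RNA. S100a11, a calcium-binding partner of annexin A1, averaged 7134 ± 1021 CPM in LUAD and 3497 ± 976 CPM in AT2 in RNA (SD, n = 4 and 3; log2 fold change 1.03 ± 0.21, adjusted p = 0.00745). S100a6 RNA was at 4425, 4714, 6150.2 and 6138 CPM in LUAD and 3269, 3487 and 3659 CPM in AT2 (log2 fold change 0.63 ± 0.17, adjusted p = 0.0209). Its footprints did not pass (log2 fold change 0.65 ± 0.26, adjusted p = 0.112), and they passed with DESeq2 and with library set as a term (adjusted p = 0.0333 and 0.000849). S100a11 footprints passed with DESeq2 (log2 fold change 1.26, adjusted p = 0.0237) and with the replicate block in edgeR (adjusted p = 0.0278). The edgeR adjusted p with 1 library left out was 0.054 to 0.0645 without AT2 2, LUAD 1 or LUAD 2 for Tmsb4x RNA and 0.0555 to 0.0815 without AT2 1, AT2 2, LUAD 3 or LUAD 4 for S100a6 RNA. S100a14 (log2 fold change -0.69 ± 0.21, adjusted p = 0.0335) and S100a1 (log2 fold change -0.83 ± 0.22, adjusted p = 0.0214) fell, with adjusted p of 0.0522 to 0.0853 without AT2 1, AT2 2, AT2 3, LUAD 1 or LUAD 2 and 0.0591 with scaling on all transcripts for S100a14, which turned direction with only transcripts listed with the short ORF, and 0.0795 to 0.0924 without AT2 1 or AT2 2 and 0.061 with scaling on all transcripts for S100a1.

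Of 6 metal and redox hosts 1 fell in footprints, the copper chaperone Atox1 (log2 fold change -0.93 ± 0.27, adjusted p = 0.0432), and this call was lost in 6 of 7 leave-outs, with adjusted p of 0.0879 to 0.145 without AT2 2, AT2 3, LUAD 1, LUAD 2, LUAD 3 or LUAD 4, 0.0861 with scaling on all transcripts, 0.0666 with counting only transcripts listed with the short ORF and 0.0592 with leaving Mettl26 out of library sizes. In RNA 2 of 6 rose, against 19.0% of all genes. One was the cathepsin inhibitor Cstb, at 578, 637, 524 and 481 CPM in LUAD and 309, 325 and 318 CPM in AT2, whose groups did not overlap (log2 fold change 0.81 ± 0.15, adjusted p = 0.00433). The other was Glrx, a glutaredoxin (log2 fold change 1.05 ± 0.31, adjusted p = 0.0286), lost at 0.0552 to 0.104 without AT2 1, AT2 2, LUAD 1, LUAD 2, LUAD 3 or LUAD 4. Mt1 and Mt2 did not pass in either assay. Mt2 footprints were at 31.7, 24.1, 42.5 and 39.3 CPM in LUAD and 111, 6.61 and 13.2 CPM in AT2, where AT2 library 1 was the highest of all, and without it the log2 fold change of -0.29 became 1.78 (adjusted p = 0.0169). Among the selenoprotein hosts of the stopped ORFs, Msrb1 RNA fell, at 75.8, 77.1, 90.2 and 84.0 CPM in LUAD and 175, 175 and 127 CPM in AT2 (log2 fold change -0.96 ± 0.17, adjusted p = 0.00338), with no overlap. RNA of Gpx1 (log2 fold change 0.88 ± 0.26, adjusted p = 0.0295) and Selenoh (log2 fold change 1.19 ± 0.34, adjusted p = 0.028) was higher in LUAD, and both calls were lost in 4 leave-outs, with adjusted p of 0.0733 to 0.112 without AT2 1, AT2 2, LUAD 3 or LUAD 4 and 0.0703 with counting only transcripts listed with the short ORF for Gpx1 and 0.0685 to 0.104 without AT2 1, AT2 2, LUAD 3 or LUAD 4 for Selenoh. None of the 6 hosts of ORFs that stop inside the CDS passed in footprints. Without AT2 2 the Msrb1 footprints passed, and without AT2 1 those of Sephs2 did (edgeR adjusted p = 0.0434 and 0.0252). With DESeq2 on all libraries footprints of Msrb1 and Sephs2 passed too (adjusted p = 0.0171 and 0.0219).

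Smim15, a small integral membrane protein, had footprints at 123, 123, 144 and 146 CPM in LUAD and 48.0, 77.3 and 75.6 CPM in AT2 (log2 fold change 0.99 ± 0.22, adjusted p = 0.0144), and it was the 1 host of 6 on the microprotein list to rise. Its LUAD footprint values were all above its AT2 values. Its RNA call (log2 fold change 0.69 ± 0.19, adjusted p = 0.0235) was lost at an adjusted p of 0.053 to 0.0953 without AT2 1, AT2 2, LUAD 2 or LUAD 3. Of the 10 endoplasmic reticulum and Golgi hosts, 1 fell in footprints, and 1 rose and 3 fell in RNA (of all genes 11.8% fell in footprints, and 19.0% rose and 18.0% fell in RNA). Sec11c, a subunit of the signal peptidase, fell in footprints (log2 fold change -1.27 ± 0.26, adjusted p = 0.0104). Its RNA did not pass, and with the replicate number as a block it did (log2 fold change -0.66, adjusted p = 0.0246). The 3 that fell in RNA were Vamp8 (log2 fold change -0.78 ± 0.20, adjusted p = 0.0162), Sec61b of the translocon (log2 fold change -0.67 ± 0.21, adjusted p = 0.0369) and Atp6v0e of the proton pump (log2 fold change -0.53 ± 0.15, adjusted p = 0.0228), and all 3 calls were lost under some alternatives. Vamp8 was lost at 0.067 to 0.0724 without AT2 1 or AT2 2, 0.0573 with scaling on all transcripts and 0.268 with counting only transcripts listed with the short ORF. Sec61b was lost at 0.0509 to 0.0847 without AT2 1, AT2 2, AT2 3, LUAD 1, LUAD 2 or LUAD 4 and 0.0633 with scaling on all transcripts, and Atp6v0e at 0.0574 to 0.0609 without AT2 2, LUAD 1, LUAD 2 or LUAD 4 and 0.0585 with scaling on all transcripts. In footprints Vamp8 passed with DESeq2 (log2 fold change -0.49, adjusted p = 0.0241) and Sec61b passed with edgeR without AT2 1 (log2 fold change -1.07, adjusted p = 0.021). The 1 that rose in RNA was Sptssa, a small subunit of serine palmitoyltransferase, which starts sphingolipid synthesis. Its RNA was at 85.7, 97.5, 118 and 106 CPM in LUAD and 28.4, 38.9 and 44.6 CPM in AT2 (log2 fold change 1.45 ± 0.21, adjusted p = 0.00161), and its footprints at 50.2, 43.1, 54.2 and 48.6 CPM in LUAD and 39.1, 45.5 and 54.8 CPM in AT2 (log2 fold change 0.07 ± 0.21, adjusted p = 0.843). RNA values did not overlap between groups, whereas footprint values did.

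Large changes also occurred in host genes of long proteins, where the counts are those of the whole gene. Il1rn, the interleukin 1 receptor antagonist, was higher in LUAD in footprints, at 41.3, 56.4, 73.5 and 69.1 CPM in LUAD and 0.889, 4.55 and 5.29 CPM in AT2 (log2 fold change 3.93 ± 0.47, adjusted p = 0.0013), and in RNA (log2 fold change 6.46 ± 0.87, adjusted p = 0.00108). Egfr, the epidermal growth factor receptor, averaged 189.7 ± 34.9 CPM in LUAD and 14.5 ± 3.13 CPM in AT2 in footprints (SD, n = 4 and 3; log2 fold change 3.69 ± 0.26, adjusted p = 0.000237). Lgals1, a secreted galectin, had footprints at 442, 514, 521 and 520.0 CPM in LUAD and 27.6, 46.7 and 73.0 CPM in AT2 (log2 fold change 3.32 ± 0.33, adjusted p = 0.000614). Each of these genes had every LUAD value above every AT2 value in footprints. Their short ORFs were small in P-sites, with 79 on 52 codons for Il1rn, 49 on 77 for Egfr and 11 on 35 for Lgals1. Lower in LUAD were Crip2, a LIM domain protein, at 39.6, 31.4, 44.3 and 41.6 CPM in LUAD and 256, 238 and 213 CPM in AT2 in footprints (log2 fold change -2.59 ± 0.18, adjusted p = 0.000243), and Fam3c, a secreted protein, at 45.9, 50.2, 42.6 and 50.5 CPM in LUAD and 243, 288 and 253 CPM in AT2 (log2 fold change -2.46 ± 0.16, adjusted p = 0.000192). The lysosomal protease Ctsh fell in both assays (log2 fold change -3.97 ± 0.39, adjusted p = 0.000586 in footprints and log2 fold change -3.72 ± 0.13, adjusted p = 4.96e-06 in RNA), and its footprint call was lost when only transcripts listed with the short ORF were counted (adjusted p = 0.208). Mettl26, the gene with 52.1% of the gene counts in AT2 footprint library 1, fell in footprints (log2 fold change -6.04 ± 1.43, adjusted p = 0.0209). Without that library the log2 fold change was -2.57 (adjusted p = 0.0228). The call was lost at an adjusted p of 0.0607 to 0.0652 without LUAD 2, LUAD 3 or LUAD 4.

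Footprints per RNA, the change in footprints beyond that in RNA, passed in 6 of 582 host genes (1.03%), all lower in LUAD, against 0.720% of all 7083 genes, 0.282% higher and 0.438% lower. No small-protein gene of 108 passed with edgeR, 18 had an unadjusted p under 0.05, and DESeq2 called 1 higher and 4 lower. With edgeR 1 was higher and 3 were lower without AT2 1, 1 was lower without AT2 3, and 3 were higher and 10 lower with library set as a term. Of all genes 7.31% passed with that term. Host genes had a median log2 ratio of -0.14 and all genes 0.01. The 6 were the lactoferrin gene Ltf, the protease gene Mcpt8, Smdt1, a subunit of the mitochondrial calcium uniporter, the splicing genes Arglu1 and Snrnp70, and Mtch1 of the mitochondrial outer membrane. Smdt1 footprints were at 30.4, 23.8, 34.5 and 39.3 CPM in LUAD and 163, 187 and 196 CPM in AT2, and its RNA averaged 233 ± 64.4 CPM in LUAD and 370.0 ± 4.78 CPM in AT2 (SD, n = 4 and 3), for a log2 ratio of -1.76 ± 0.32 (adjusted p = 0.0246). Arglu1 had a log2 ratio of -1.47 ± 0.22 (adjusted p = 0.0116), and Mcpt8 -2.83 ± 0.49 (adjusted p = 0.0224). Ltf RNA had 0 counts in AT2, so its fitted ratio is no measure of size. None of the 6 passed when any 1 LUAD library was left out, where 0 host genes passed in all. Of all genes 0.0284%, 0.0142%, 0.0850% and 0.156% passed without LUAD 1, 2, 3 and 4, so this loss was not particular to host genes. The unadjusted count over host genes was then 81, 65, 64 and 67 without LUAD 1 to 4, against 96 with all libraries. Without AT2 libraries 1, 2 and 3 the host calls numbered 20, 3 and 14. With the replicate number as a block 3 host genes passed, without Ltf, Snrnp70 and Mtch1. DESeq2 called 6 host genes higher and 30 lower, and 5.29% of all genes. Those lower included Sptssa (log2 ratio -1.36, adjusted p = 0.000373), Hilpda (-1.57, 0.0192), Sf3b5 (-1.22, 0.0167) and Tomm6 (-1.38, 0.0404). None of these genes passed with edgeR on all libraries. Sptssa and Hilpda passed with edgeR without AT2 1 (adjusted p = 0.0324 and 0.0227).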

How the data were processed

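Footprints and RNA were measured in 4 LUAD and 3 AT2 libraries each, and ORFs were listed in 3 LUAD and 2 AT2 libraries. The authors deposited kallisto output for footprints and RNA, with an estimated count for each transcript (the tool is named in the submitters' processing notes, without a version). The deposited TPM column beside it was used for no test. For each ORF, columns named in the file headers hold P-site counts by reading frame, the authors' RPKM and the authors' p-value for in-frame excess, with mm10 coordinates according to those notes. The sources used here name neither the program that called the ORFs nor an RNA library protocol, since the labels repeat the RiboLace text for RNA.

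The deposited ORF length leaves out the stop codon, so the limit of 303 nucleotides was applied to that length plus the stop. ORFs were matched by the authors' identifier, and P-sites were taken from 1 transcript per ORF and library. Among 1069 pairs of ORF and library, 29 differed between transcripts. The place of an ORF in the CDS was computed from the coordinates that the lists give. The ORF lists served to assign transcripts to genes (22509 of 118489 transcripts, 65.0% to 70.0% of counts, 7266 genes), whose summed counts were rounded to whole numbers. Tests used edgeR 4.0.16 (R 4.3.3), separately for footprints and RNA, with TMM scaling, filterByExpr and the robust quasi-likelihood test. The Benjamini-Hochberg adjustment ran over all genes tested, with calls at an adjusted p under 0.05. Footprints per RNA were the tissue by assay interaction of a joint fit. CPM uses the TMM-scaled size of the paired counts. Library shares were compared with exact permutation tests in SciPy 1.17.1, and figures were drawn with matplotlib 3.10.9. Alternatives were DESeq2 1.42.0, other scalings and filters, a replicate block, single libraries left out, and 2 chosen after seeing the data (a term for library set, and Mettl26 left out of library sizes). The fits were tested on simulated counts.

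The members and gene lists were chosen with earlier results of these data known. Genes named are the 12 ORFs with most P-sites, up to 8 host genes per direction and test averaging 20 counts or more, up to 3 members per list, the shortest ORFs and those at the limit, plus genes picked after their values were seen, which are Hilpda, Cks1b, Sptssa, the hosts of ORFs that stop inside the CDS, the examples of ORFs in another frame and the other called members of lists. Only part of the genes the rule takes are described. A host gene, and the counts of the ubiquitin and proteasome list, are not reported here. Same-numbered RNA libraries deviated in the same way (correlation 0.188, 0.153 and 0.244). Differently numbered ones did so about as much, with 0.176 for AT2 2 with LUAD 1 and 0.237 for AT2 3 with LUAD 4. That check of the data therefore did not show pairing by number in RNA, nor in footprints. No 2 libraries of a group agreed within sampling noise (lowest mean chi-square 5.32).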

Additional observations from a re-analysis of the deposited data

Results flagged for a closer look

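Of 202 values of named genes in the 4 LUAD libraries, 4 had 1 library far from the other 3 by Dixon's test, where chance alone flags about 1 in 20 groups. Lgals1 footprints were low in LUAD library 1, at 442 CPM, and this is the shallowest LUAD footprint library. Mrps21 footprints stood apart in LUAD library 4, at 103 CPM. Fam3c RNA stood apart in LUAD library 4, at 73.3 CPM, and Dynll2 RNA was low in LUAD library 3, at 124 CPM.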

How the results depend on the processing

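The share of short ORFs among listed annotated ORFs, -0.324 percentage points in LUAD against AT2, became 1.10 (exact permutation p = 0.2) with at least 20 P-sites and ranged from -1.69 to 1.04 with 1 library left out. The short ORFs' share of P-sites, -0.757, became 0.195 with the authors' p of 0.001 or less. Host genes passing for footprints numbered 109, against 175 with DESeq2, 58 with only transcripts listed with the short ORF, 269 with a term for library set, and 61 to 158 with 1 library left out. For RNA 219 passed, against 86, 341 and 111 to 288 under the last 3 of these. The share of all genes passing moved as well, with 12.5% to 27.2% for footprints and 23.3% to 47.9% for RNA with 1 library left out. For footprints per RNA 6 passed, against 36 with DESeq2, 3 with the replicate block, 62 with library set as a term, and 0 to 20 with 1 library left out. Deviations of the libraries did not show pairing by number in either assay (correlation of same-numbered footprint libraries 0.373, -0.299 and 0.301). The replicate block gave 39 higher and 34 lower in footprints, and 180 higher and 83 lower in RNA. Under it 7 named genes lost their footprint call (Gnas, Gaa, Polr2j, Cox6c, Ndufa11, Cxcl16 and Atox1), Vps52 and Arglu1 their RNA call (adjusted p = 0.0576 and 0.0511), and Ltf, Snrnp70 and Mtch1 their call per RNA (0.0968, 0.0889 and 0.0968). It added S100a11 for footprints (0.0278) and Pdia3, Ndufa11, Sec11c and Tff1 for RNA (0.0334, 0.0214, 0.0246 and 0.0168), and changed no other call among the named genes it could test. Nrn1 footprints were not tested under it. With only transcripts listed with the short ORF, 5 log2 fold changes of called genes changed sign, to 0.026 for Gnas and 0.064 for Arglu1 footprints and to -0.33 for Mrpl52, -1.57 for Pfn1 and 0.87 for S100a14 RNA (adjusted p = 0.969, 0.955, 0.673, 0.402 and 0.25). Mt2 footprints ranged from -0.81 to 1.78 with 1 library left out. The cause of these changes was not tested.

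AT2 footprint libraries are shallower than all LUAD ones, and low AT2 counts limit what can be seen for rare genes there. ORF lists hold only ORFs past the authors' threshold, so an unlisted ORF is not one without translation. Counts are sums over transcripts and do not separate a short ORF from longer ones of its gene.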
